A study of Mus musculus with 3 samples.

Results

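Rab GTPases are small GTP-binding proteins that mark the membranes of the secretory and endocytic pathways, and 59 mouse genes in the annotation used carry a symbol of the family. The members were chosen by name alone, as every gene whose symbol is Rab followed by a number and at most a letter and a further digit, with at least 1 isoform annotated as protein-coding. They are 59 of 55536 annotated genes and of 22028 protein-coding genes. The data are total RNA-seq, after depletion of ribosomal RNA, of nuclear RNA from macrophages grown from the bone marrow of C57BL/6J mice. All libraries come from 1 group: the cells had 100 ng/ml lipid A, the membrane anchor of bacterial lipopolysaccharide, for 12 h, then a washout of 12 h, then 100 ng/ml lipid A again for 15 min. The 3 libraries are numbered as biological replicates 1 to 3 under 1 donor identifier, and whether they came from separate mice is not stated, so every SD and p-value describes the spread between these libraries, which may be technical. Replicates 1 and 3 were made from 1 µg of RNA and replicate 2 from 500 ng; sex and age were not recorded. No untreated or differently treated library is analysed here, so the values are levels in these nuclei and not responses to lipid A.

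A Rab protein is a switch. Guanine nucleotide exchange factors (GEFs) load it with GTP at a given membrane, where it recruits effectors such as tethers and motors, and GTPase-activating proteins (GAPs) end the signal. A prenyl tail anchors it, and escort proteins and the GDP dissociation inhibitors carry it to and from membranes. In macrophages Rab proteins order the steps by which a phagosome matures from an early endosome-like to a lysosome-like compartment, and several of them move Toll-like receptor 4, the receptor of lipid A.

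Replicates 1, 2 and 3 had totals of 23826101, 19312032 and 21730342 expected counts on annotated genes, of which 58097, 49050 and 50233 fell on the Rab genes. Of 20 macrophage markers, 19 reached 1 TPM (transcripts per 1000000 transcripts, a level per transcript length) in all libraries, led by Ctsd, Ctsb and Lyz2. TPM values are those of the deposited tables that also give expected counts; another deposited quantification, with estimated counts per transcript, is used for comparison. Cd163, a scavenger receptor, was the exception at 0.13, 0.08 and 0.01 TPM. Marker genes of other cell types were mostly below that level: 0 of 11 for granulocytes, 0 of 8 for fibroblasts, 0 of 6 for mast cells, and 1 each of 8 for B cells, 12 for T and NK cells, 8 for dendritic cells and 7 for erythroid cells. The nuclear noncoding RNAs tested as a fraction marker took between 42.6% and 50.4% of all TPM, and mitochondrially encoded mRNAs between 1.87% and 5.69%. Nuclear-encoded protein-coding genes held 20.0%, 22.2% and 20.6% in replicates 1, 2 and 3.

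Most of the family was present in the nuclear RNA of these macrophages, at levels above those of a typical gene. At least 1 TPM in all 3 libraries, called detected here, was reached by 37 of 59 Rab genes, against 42.8% of all protein-coding genes. At least 10 TPM in all libraries was reached by 23, against 16.7% of all protein-coding genes. The median Rab gene stood at 2.46, 2.81 and 2.51 log2(TPM + 1) in replicates 1, 2 and 3. Their mean was 2.59 ± 0.19 (SD, n = 3), and that of the median protein-coding gene was 0.44 ± 0.03. Among detected genes only, the medians were 3.90 ± 0.10 for 37 Rab genes and 3.25 ± 0.10 for 9434 protein-coding genes. Together the Rab genes held 0.333% ± 0.0116 of the TPM of nuclear-encoded protein-coding genes (SD, n = 3). That total was unevenly divided: the 3 highest genes held 25.7% of it, the 8 highest 52.8% and the 16 highest 75.6%.

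**Figure D1:**
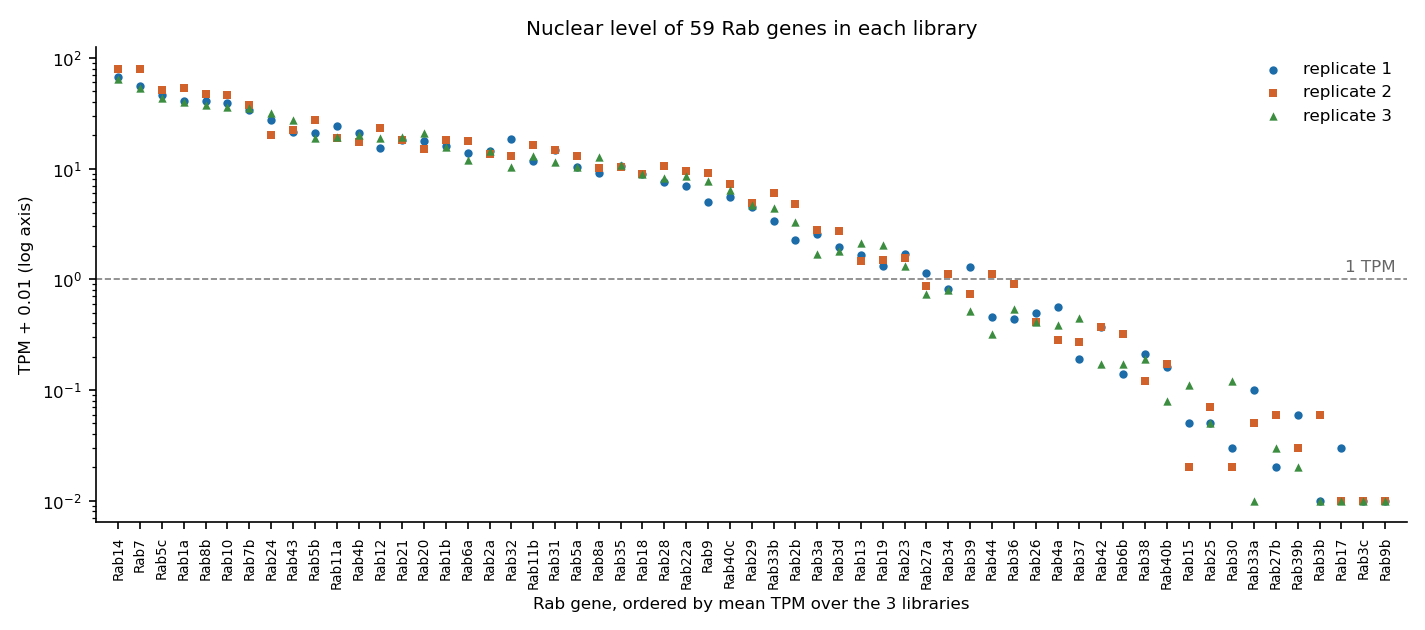
TPM plus 0.01 on a log axis for each of the 59 Rab genes (horizontal axis, ordered by mean) in each of the 3 libraries (points); the dashed line is 1 TPM. The 37 genes with all points on or above the line lie between Rab14, with a mean of 69.7 TPM, and Rab23, with a mean of 1.51 TPM.

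Rab14, Rab7 and Rab5c had the highest mean TPM of the family, and they act in the recycling, late and early steps of the endocytic route. The place of Rab5c was not fixed: Rab1a was above it in replicate 2, and Rab7b, a further late endosome gene, was above it in the other quantification. Levels formed a gradual series: of the 36 pairs of neighbours in the order of mean TPM among detected genes, 4 did not overlap between libraries. These were Rab7 over Rab5c, Rab7b over Rab24, Rab35 over Rab18, and Rab40c over Rab29. For the other neighbours the ranges over the libraries overlapped, which compares ranges and not the order within each library. Some of these pairs kept their order in every library, such as Rab8b over Rab10. Others did not: Rab7 was above Rab14 in replicate 2. By the compartment assigned to each gene, Rab genes of recycling endosomes and the plasma membrane held 35.7% ± 0.259 of the summed Rab TPM, those of early endosomes 20.0% ± 0.326, and those of late endosomes, lysosomes and autophagy 19.3% ± 0.470 (SD, n = 3). Rab genes of the endoplasmic reticulum (ER) and Golgi held 19.0% ± 0.572, those of lysosome-related organelles and secretory granules 3.68% ± 0.719, and those of the cilium and of ubiquitin ligase adaptors 2.39% ± 0.172.

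**Figure D2:**
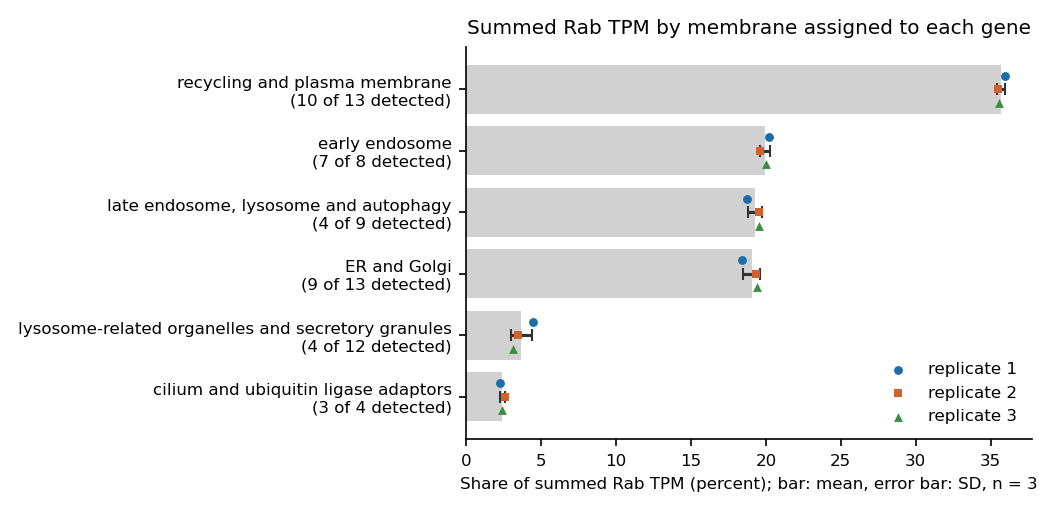
Share of the summed Rab TPM, in percent, held by the Rab genes of each compartment; bars are means, error bars SDs over 3 libraries, and points the libraries. Recycling endosomes and the plasma membrane held the largest share, 35.7%, and secretory and lysosome-related organelles 3.68% although 12 genes were assigned to them.

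Recycling and exocytosis were covered by 10 detected genes of 13, against 42.8% of all protein-coding genes. Rab14, which acts between endosomes, phagosomes and the trans-Golgi network, lies on chromosome 2 (mm10, 35180205 to 35201120, minus strand). It had 66.47, 78.93 and 63.77 TPM in replicates 1, 2 and 3, from 5292 to 6646 expected counts. It was the highest of the family in replicates 1 and 3, and Rab7 was above it in replicate 2. Rab8b, a GTPase of exocytic carriers, had 40.50, 47.20 and 37.46 TPM, and its paralog Rab8a had 9.20, 10.07 and 12.83 TPM. The 2 genes did not overlap, and the ratio of Rab8b to Rab8a was 4.0 ± 0.95 (SD, n = 3). In the other deposited quantification it was 2.69 ± 0.54. Counting only isoforms annotated as protein-coding, Rab8a had 4.88, 6.28 and 5.04 TPM and Rab8b was unchanged, so the size of the ratio depends on the quantification. Rab10, which drives the return of Toll-like receptor 4 to the macrophage surface, had 39.13, 45.89 and 36.30 TPM. It was slightly below Rab8b in each library, and their ranges overlapped.

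Rab11a, the GTPase of the recycling endosome that also brings Toll-like receptor 4 to phagosomes, had 24.14, 18.80 and 19.46 TPM. Its paralog Rab11b had 11.59, 16.31 and 13.05 TPM. The Rab11a values were above all Rab11b values, with ratios between 1.15 and 2.08. In the other deposited quantification the ratios were between 2.32 and 3.65. Rab4b, of the fast recycling route, had 20.87, 17.53 and 20.03 TPM, whereas Rab4a had 0.55, 0.27 and 0.38 TPM. Of that pair, only the b gene was thus detected, and the ratio was 51.9 ± 13.5 (SD, n = 3). It rests on 22, 8 and 12 counts of Rab4a, and was 35.7 ± 6.06 in the other deposited quantification. Rab12, which acts in the degradation of transferrin receptor, had 15.37, 23.40 and 18.88 TPM. Rab35, of the fast recycling route at the plasma membrane, averaged 10.6 TPM, and Rab13, known from epithelial junctions, averaged 1.74 TPM. Rab15 averaged 0.05 TPM in 1 to 4 counts, and Rab25, an epithelial relative of Rab11, had 1 count in each library.

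The early endosome group had 7 detected genes of 8, against 42.8% of all protein-coding genes. All 3 Rab5 genes, whose products recruit the tethers and lipid kinases of early endosomes, were present, and their order was the same in every library. Rab5c had 46.20, 51.41 and 43.35 TPM. Rab5b had 20.73, 27.45 and 18.80 TPM. Rab5a, the most studied of them, was the lowest at 10.38, 13.04 and 10.32 TPM. The 3 genes did not overlap, and Rab5c exceeded Rab5a by a ratio of 4.2 ± 0.25 and Rab5b by 2.14 ± 0.231 (SD, n = 3).

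Rab21, known for the traffic of integrins, was among the steadiest of the family in TPM, at 18.16, 18.22 and 19.31 TPM. Rab20, which acts on macrophage phagosomes and endosomes, had 17.81, 14.97 and 20.73 TPM, lowest in replicate 2. Rab31, of the route between the trans-Golgi network and endosomes, averaged 13.6 TPM, and Rab22a, of early endosome sorting, averaged 8.33 TPM. Rab17, an epithelial Rab, had 1 count in replicate 1 and 0 in the others.

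In the late endosome, lysosome and autophagy group 4 of 9 genes were detected, near the 42.8% of all protein-coding genes. Those 4 included some of the highest of the family. Rab7, the GTPase of late endosomes and of phagosome fusion with lysosomes, lies on chromosome 6 (mm10, 87999106 to 88045270, minus strand). It had 56.01, 79.95 and 53.21 TPM. Rab7b, which steers Toll-like receptor 4 to lysosomal degradation in macrophages, had 34.02, 37.51 and 35.36 TPM. The pair did not overlap, and the ratio of Rab7 to Rab7b was 1.76 ± 0.329 (SD, n = 3). In the other deposited quantification it was 1.15 ± 0.10. There, after rescaling to nuclear-encoded protein-coding genes, the ranges overlapped. They ran from 248 to 297 TPM for Rab7 and from 236 to 255 TPM for Rab7b, with Rab7 higher in each library. Rab24, an autophagy gene, had 27.53, 20.18 and 31.43 TPM, lowest in replicate 2. Rab9, which returns mannose 6-phosphate receptors to the Golgi, averaged 7.24 TPM. Rab34 and Rab39 crossed 1 TPM in 1 library each and averaged 0.90 and 0.84 TPM. Rab42 averaged 0.29 TPM and Rab39b 0.03 TPM, and Rab9b, the paralog of Rab9, had 0 counts in every library, which allows up to 3 counts in each.

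The ER and Golgi group had 9 detected genes of 13, against 42.8% of all protein-coding genes. Rab1a, which acts in transport from the ER to the Golgi, had 40.35, 53.14 and 39.52 TPM. Its paralog Rab1b had 15.97, 18.15 and 15.81 TPM. They did not overlap, and the ratio was 2.65 ± 0.240 (SD, n = 3). Rab43, a Golgi Rab, had 21.56, 22.27 and 27.54 TPM. Rab6a, of retrograde Golgi transport, averaged 14.5 TPM, and its paralog Rab6b averaged 0.20 TPM. Rab2a, which acts between the Golgi and the ER, averaged 14.1 TPM against 3.44 TPM for Rab2b. Rab18, of the ER and lipid droplets, had the narrowest range in TPM of all detected Rab genes, at 8.86, 8.89 and 8.84 TPM. That depends on the scale. With TPM rescaled to a fixed sum over nuclear-encoded protein-coding genes, Rab18 had 44.4, 40.1 and 42.8. On that scale Rab7b varied less, at 170.7, 169.2 and 171.4. Rab33b, which binds the autophagy protein Atg16l1, averaged 4.56 TPM, and Rab19 averaged 1.60 TPM. The other 4 genes of the group, Rab36, Rab6b, Rab30 and Rab33a, had means of 0.62 TPM or less.

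The Rab genes of regulated secretion were low for the family, with 4 detected of 12, against 42.8% of all protein-coding genes. Rab32, which acts in the biogenesis of lysosome-related organelles and on phagosomes that hold bacteria, was the highest of them at 18.46, 13.09 and 10.22 TPM, highest in replicate 1. Its paralog Rab38 had 0.20, 0.11 and 0.18 TPM, from 4 to 10 counts. The ratio of Rab32 to Rab38 was between 56.8 and 119. Rab27a, which docks secretory lysosomes and exosomes, had 1.14, 0.86 and 0.73 TPM, above 1 TPM in replicate 1 alone. Rab27b had 0.01, 0.05 and 0.02 TPM, from 3 or 4 counts. Rab29, a partner of the kinase Lrrk2, averaged 4.71 TPM, Rab3a 2.32 TPM and Rab3d 2.15 TPM. Rab3a is a Rab of synaptic vesicles, and Rab3d is its relative. Rab44 crossed 1 TPM in replicate 2 alone and averaged 0.62 TPM. Rab26, Rab37, Rab3b and Rab3c had means between 0 and 0.43 TPM.

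The smallest group had 3 detected genes of 4, against 42.8% of all protein-coding genes. Rab28, a ciliary Rab, averaged 8.73 TPM. Rab40c and Rab40b carry a SOCS box that binds ubiquitin ligases, and they averaged 6.37 and 0.13 TPM. Rab23, which restrains Hedgehog signalling at the cilium, averaged 1.51 TPM and was the lowest detected gene of the family. Over the whole family, 18 genes were under 1 TPM in every library, 4 (Rab27a, Rab34, Rab39 and Rab44) were at or above it in some libraries only, and 6 had 3 or fewer counts in every library.

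**Figure D3:**
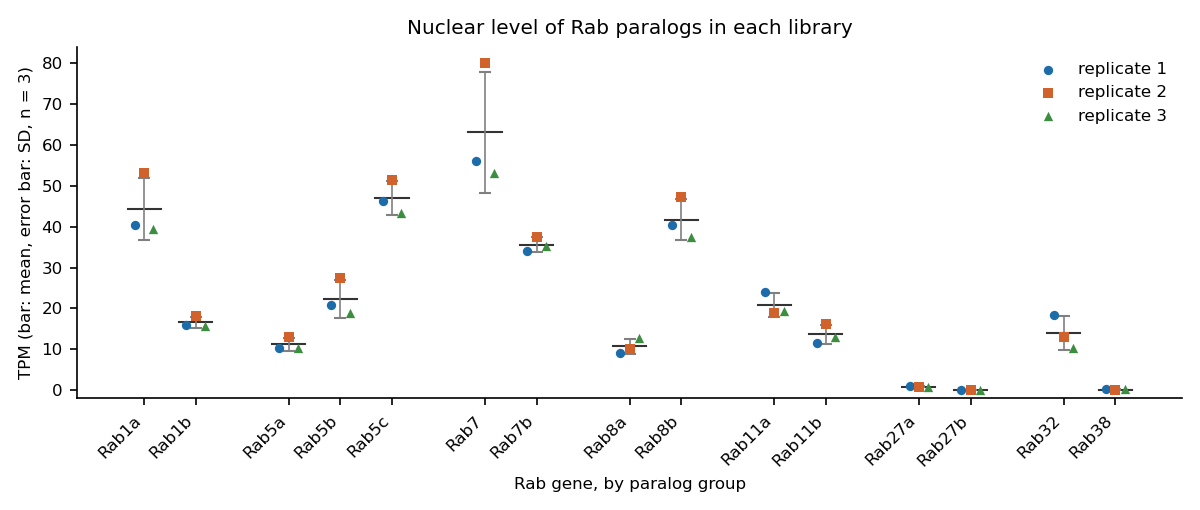
TPM of the Rab paralogs on a linear axis in each library (points), with the mean (bar) and SD (error bar, n = 3). Within the Rab1, Rab5, Rab7, Rab8 and Rab11 groups all members were present at more than 9 TPM, while Rab27b and Rab38 lay near 0.

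Which Rab gene came first depended on the isoforms counted. In nuclear RNA, unspliced transcripts and isoforms annotated as retaining an intron cannot be told apart in these tables. Counting only isoforms annotated as protein-coding, an alternative chosen after the values were seen, placed Rab7 first at 63.1 ± 14.7 TPM (SD, n = 3), ahead of Rab5c, Rab8b and Rab10. Rab14 came 5th, at 36.57, 46.75 and 34.31 TPM. Of the 13 annotated isoforms of Rab14, 7 are of the retained-intron class, and these held 41.5%, 40.8% and 42.1% of its transcript TPM in replicates 1, 2 and 3. By contrast Rab8b and Rab10 each had a single annotated isoform.

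Of the 256 annotated isoforms of the family, 53 are of the retained-intron class, spread over 26 genes, of which 16 were detected. The median share of a gene's transcript TPM on such isoforms was 22.8% ± 1.94 for these 16 Rab genes (SD, n = 3) and 24.0% ± 0.441 for 5980 detected protein-coding genes that have one. A share above 50% in all libraries was found in 0 of 16 Rab genes, against 8.95% of those genes. A share below 10% in all libraries was found in 1 of 16, Rab3d, against 12.6%. The other quantification gave 1 of 16 above 50%, Rab23, against 13.1%, and 0 of 16 below 10%, against 8.53%. Rab23 had the highest mean share, with 71.8%, 69.5% and 48.5%, from 91 to 142 counts. Rab8a followed at 47.0%, 37.7% and 58.7%, held by 1 short isoform. Rab4b had 36.8%, 42.3% and 35.6%. Shares of Rab14, Rab12, Rab5b, Rab5a and Rab6a had SDs below 2 percentage points, whereas those of Rab23, Rab8a and Rab28 had SDs above 10.

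**Figure D4:**
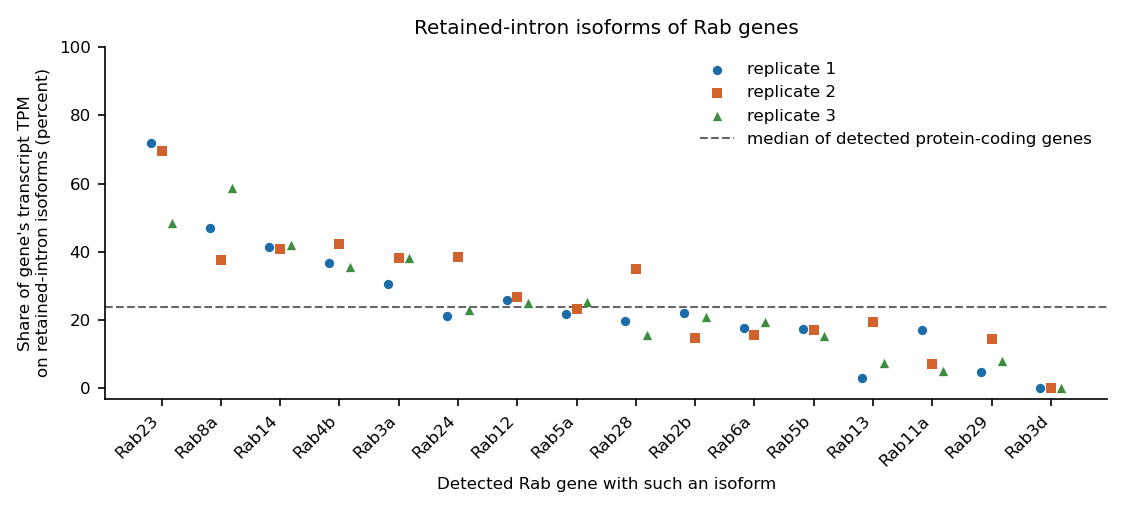
Share of each gene's transcript TPM on retained-intron isoforms, in percent, for the 16 detected Rab genes that have one, in each library (points); the dashed line is the median of detected protein-coding genes, 24.0%. Rab23, Rab8a, Rab14, Rab4b, Rab3a and Rab12 lay above the line in all 3 libraries, and Rab3d had 0% in each.

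Taking all isoform classes, a median of 95.7% ± 0.851 of the TPM of the 37 detected Rab genes was on protein-coding isoforms (SD, n = 3). For 9420 detected protein-coding genes the median was 78.2% ± 0.342. The Rab genes also had fewer annotated isoforms, a median of 4 against 5. Among genes with at least 1 isoform of another class, the medians were 83.5% ± 1.06 for 26 Rab genes and 71.8% ± 0.429 for 7807 genes. Rab23 was the 1 detected gene with under 50% of its TPM on protein-coding isoforms in every library, at 29.2% ± 1.19 (SD, n = 3).

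Rab6a is known for 2 coding variants from 1 gene. It carries a pair of mutually exclusive exons of 106 bases on chromosome 7 (mm10, plus strand), the upstream at 100629666 to 100629771 and the downstream at 100629838 to 100629943. They are shown because they differ at 30 bases, in capitals, and reads there can tell spliced isoforms apart. The sequences are 71.7% identical and were read from the GENCODE M21 transcripts, 5′ to 3′.
Rab6a upstream exon: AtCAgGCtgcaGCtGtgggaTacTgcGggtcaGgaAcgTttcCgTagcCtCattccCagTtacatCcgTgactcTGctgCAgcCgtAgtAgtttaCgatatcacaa
Rab6a downstream exon: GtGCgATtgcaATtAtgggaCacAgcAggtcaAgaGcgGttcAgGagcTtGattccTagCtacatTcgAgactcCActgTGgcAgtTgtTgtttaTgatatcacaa

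Isoforms with the upstream exon had 6.05, 7.99 and 2.69 TPM in the 3 libraries, and the isoform with the downstream exon had 5.38, 6.95 and 6.91 TPM. The upstream share of their sum was therefore 52.9%, 53.5% and 28.0%, which averages 44.8% ± 14.5 (SD, n = 3). In replicate 3, 1 of the 2 upstream isoforms was listed at 0. The other quantification gave 46.5%, 44.2% and 30.9%. Isoforms with each exon were above 0 TPM in every library, and replicate 3 had the lowest upstream share in both quantifications. Unspliced RNA of the gene holds both exons. These shares are therefore estimates per isoform and do not show which exon was spliced in.

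Promoter windows from RefSeq (GRCm38.p6, 250 bases before to 50 after a gene's start) were found for 48 of 59 Rab genes by symbol. The 34 detected genes among them held a median of 25 CG dinucleotides in the 300 bases, from 9 to 43, and the 14 that were not detected held 11.5, from 5 to 42. The same split was seen over all protein-coding genes, with 21 in 7567 detected genes and 6 in 8955 others, so it is not particular to the family. The ranges within the family overlapped: the window of Rab6b, not detected, held 42. The windows of Rab14, the highest Rab gene, with 27, and of Rab17, whose window held the fewest of the family, with 5, are given on the gene's strand with CG in capitals. The window of Rab14 is near the median of the detected genes, and the most, 43, were in Rab10 and Rab35. The windows of Rab14 and Rab17 lie at chr2:35201071-35201370 and chr1:90967618-90967917, both on the minus strand. In GENCODE M21 Rab17 spans 90958133 to 90969661, so its window lies inside the gene and not at the start annotated there.
Rab14: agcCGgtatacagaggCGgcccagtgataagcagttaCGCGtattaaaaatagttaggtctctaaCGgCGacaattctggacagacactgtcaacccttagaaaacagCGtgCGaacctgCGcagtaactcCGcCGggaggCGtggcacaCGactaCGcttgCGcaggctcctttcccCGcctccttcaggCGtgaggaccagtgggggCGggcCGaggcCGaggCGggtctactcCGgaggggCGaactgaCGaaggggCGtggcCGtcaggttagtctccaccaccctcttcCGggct
Rab17: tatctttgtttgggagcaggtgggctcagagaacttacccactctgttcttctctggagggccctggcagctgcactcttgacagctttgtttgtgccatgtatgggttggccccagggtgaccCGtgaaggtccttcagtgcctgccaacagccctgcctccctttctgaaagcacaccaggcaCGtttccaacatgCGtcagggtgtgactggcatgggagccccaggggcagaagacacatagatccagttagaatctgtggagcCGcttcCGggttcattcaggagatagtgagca

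The motif CACGTG, which reads the same on both strands and is bound by TFEB and MYC among others, was in the windows of 5 of 34 detected and 1 of 14 other Rab genes. It was in 12.6% of the detected protein-coding genes, 6.29% of the others, and 7.15% of all 32851 windows. The Rab genes that held it were Rab24, Rab21, Rab20, Rab5a and Rab23 among the detected, and Rab27a. The family is spread over 18 chromosomes. Of the 4 members on the X chromosome, 1, Rab9, was detected. Detected Rab genes had a median span of 22705 bases, against 23724 for detected protein-coding genes.

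Most listed genes of the machinery that serves the Rab proteins were detected, against 42.8% of all protein-coding genes. All 8 genes for prenylation and recycling were detected, led by Gdi2, a GDP dissociation inhibitor that extracts Rab proteins from membranes, at 64.9 ± 12.0 TPM (SD, n = 3). Rabggtb, a subunit of the Rab prenyltransferase, averaged 13.9 TPM and Rabac1, a prenylated Rab acceptor, 9.32 TPM. The lowest was Chml, a Rab escort protein, at 1.84 TPM. Of the GEFs, 30 of 35 were detected. Dennd1a, an exchange factor of Rab35, averaged 57.4 TPM and Gapvd1, of Rab5, 43.4 TPM. Madd, of Rab3 and Rab27, averaged 40.5 TPM. Ric1, of Rab6, averaged 38.1 TPM, and Dennd2a was the lowest detected at 2.50 TPM. Of the GAPs, 28 of 33 were detected. Tbc1d13, a GAP of Rab35, averaged 78.7 ± 8.08 TPM (SD, n = 3), above Rab35 itself at 10.6. Tbc1d2b, Tbc1d10b and Tbc1d14 averaged 28.5, 27.3 and 23.0 TPM, and Tbc1d8b was the lowest detected at 1.20 TPM.

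Of the effectors, 36 of 46 were detected, against 42.8% of all protein-coding genes. Appl2, an adaptor on early endosomes, had 57.08, 83.75 and 58.96 TPM. Ankfy1, an effector of Rab5, averaged 41.8 TPM, Plekhm1, an effector of Rab7, 29.8 TPM and Plekhm2, a lysosomal adaptor, 29.7 TPM. Rilpl1, which binds phosphorylated Rab8 and Rab10, was the lowest detected at 1.85 TPM. The 5 effector genes listed at 0 TPM in every library, named here after their values were seen, were Exph5, Rph3al, Sytl2, Sytl4 and Sytl5. Of 8 genes related to Rabs but outside the symbol rule, 6 were detected, against the same 42.8%, with Rabl6 highest at 21.2 TPM.

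Tests of 1 library against the others called no Rab gene, in a design that leaves 1 residual degree of freedom and lets few genes pass. Each library was compared with the other 2 by edgeR's quasi-likelihood test with Benjamini-Hochberg adjustment over 14350 genes, of which 44 were Rab genes. At an adjusted p under 0.05, 0 Rab genes were called in each of replicates 1, 2 and 3, against 0.202%, 0% and 0.00697% of all genes. At an unadjusted p under 0.05 the Rab genes numbered 2, 1 and 0, against 6.15%, 6.11% and 3.74% of all genes. DESeq2, run as an alternative, tested 46, 33 and 34 Rab genes for replicates 1, 2 and 3. Its counts are therefore not like for like with those of edgeR. The 2 in replicate 1 were Rab32, with a log2 fold change of 0.77 over the other libraries (SE 0.24, edgeR adjusted p = 0.394), and Rab39, with one of 1.16 (SE 0.43, edgeR adjusted p = 0.569). Rab39 had 128 counts in replicate 1 against 52 and 45 in replicates 2 and 3. The 1 in replicate 2 was Rab20, with a log2 fold change of -0.61 (SE 0.23, edgeR adjusted p = 0.773). These counts do not show that the Rab genes were equal between libraries.

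The spread of the Rab genes between libraries was close to that of other genes. The SD of log2(TPM + 1) had a median of 0.19 over 37 detected Rab genes and 0.20 over 9434 detected protein-coding genes. Replicate 2 gave the highest TPM for 23 of 37 Rab genes, a share of 62.2%, against 59.6% of detected protein-coding genes. After rescaling TPM to a fixed sum over nuclear-encoded protein-coding genes in each library, replicate 2 was highest for 19 of 37, against 44.5%. Replicate 2 is also the library of 500 ng RNA, so RNA input and culture cannot be told apart.

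The other deposited quantification, which estimates counts per transcript from an index, gave other levels for some detected genes and for several low ones. After rescaling to nuclear-encoded protein-coding genes, Rab14 averaged 293 TPM in it and 333 TPM in the expected-count table. Over the 37 detected genes the ratio of its value to the expected-count value ran from 0.743 to 2.08, with a median of 0.930. It was above 1.3 for 6 genes: Rab23 at 2.08, Rab11a at 1.68, Rab18 at 1.54, Rab9 at 1.43, Rab7b at 1.42 and Rab12 at 1.31. It was below 0.8 for 3, namely Rab8b at 0.792 and Rab2b and Rab24 at 0.743. Rab27b had 154.8, 209.0 and 131.6 estimated counts there, against 3, 4 and 3 expected counts. Rab3c had 290.9, 462.2 and 234.3 estimated counts there, against 0, 0 and 1. Rab9b had 36.0, 90.4 and 52.4, against 0 in each. Whether these genes had transcripts in the nuclei cannot be settled from the tables, and the reason for the difference was not tested.

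**Figure D5:**
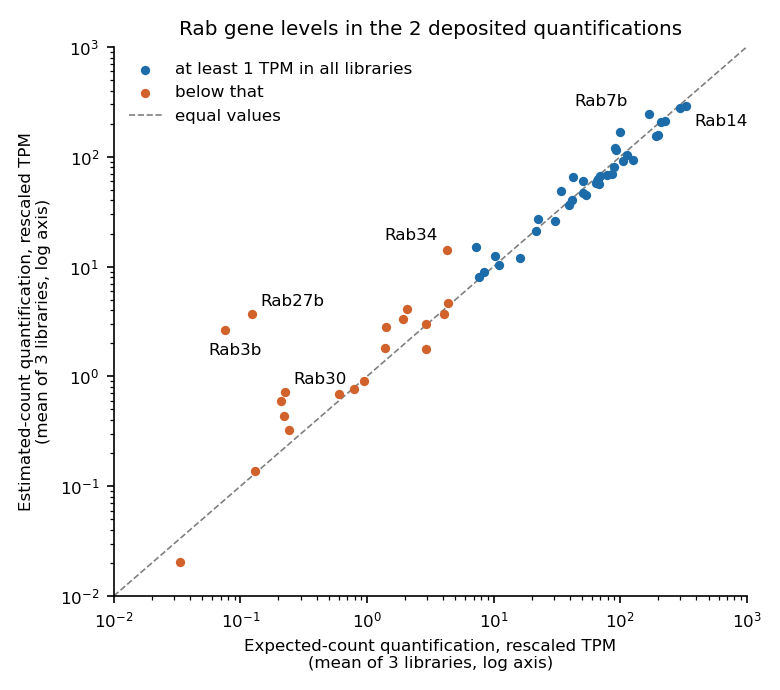
Mean level of each Rab gene over the 3 libraries in the estimated-count quantification (vertical, log axis) against the expected-count quantification (horizontal, log axis), both rescaled to 1 fixed sum over nuclear-encoded protein-coding genes; colour marks detection and the dashed line equal values. Detected genes lie between 0.743 and 2.08 times the line, while Rab27b and Rab3b lie above it by ratios of 29.9 and 35.1; Rab3c and Rab9b have a mean of 0 on the horizontal axis and are not drawn.

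Some levels are less certain because annotated genes share exons with the Rab gene, and no source used here gives the strand setting of the authors' counting. At least 1 exonic base was shared by 20 of 59 members, and more than 20% of the exonic bases by 5. Rab43 shared 75.4% with Gm45140 on the same strand, and Rab4b shared 65.0% with Gm21983 on the same strand. Rab24 shared 62.4% with Prelid1 on the opposite strand, which had 19.44, 23.91 and 25.62 TPM. Rab2b shared 59.3% with Gm43766, and Rab20 shared 25.6% with E230013L22Rik, both on the opposite strand. Gm45140 and Gm21983 were listed at 1.56 TPM or less. The annotated Rab pseudogenes, Rab11b-ps2, Rab5a-ps, Rab7-ps1 and Rab9b-ps1, were at 0.43 TPM or less in every library.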

How the data were processed

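Total RNA-seq of nuclear RNA was analysed in 3 libraries of 1 group. Per the file headers, the authors' gene and transcript tables hold the columns that RSEM writes and refer to GENCODE M21; the labels name mm10. No source used here states the program or its version. The deposited expected counts are the authors' estimated counts per gene or transcript, not normalised. The deposited TPM values, and posterior mean TPM, are the authors' levels per length with 1 common total in every library, and the deposited FPKM values by length and depth. A further deposited table has the columns that kallisto writes, with estimated counts and TPM per transcript, here summed per gene and called kallisto-format.

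Symbols and coordinates came from GENCODE M21, and all 59 symbols matched. Rows that name no annotated gene were left out of totals and tests; phiX and ERCC rows held 0.827%, 0.275% and 0.0545% of expected counts in replicates 1, 2 and 3. A gene was detected at 1 TPM in all libraries, and log values are log2(TPM + 1). TPM is a share of each library, so values depend on the share that short structural RNAs hold. For tests, expected counts were rounded, filtered by filterByExpr, scaled by TMM and fitted in edgeR 4.0.16; DESeq2 1.42.0 was the alternative. Both ran in R 4.3.3, and only the edgeR test was tried on simulated data, for the contrast of replicate 1. Tables and figures used Python 3.11.15, pandas 2.3.3, numpy 2.4.6 and matplotlib 3.10.9. Members, lists and compartments were chosen with earlier results of these data known. Values per library are given for the 16 Rab genes of highest mean TPM and for the Rab1, Rab5, Rab7, Rab8, Rab11, Rab27 and Rab32 with Rab38 paralogs. Rab18, Rab4a and some genes of few counts were added after their values were seen. Of each regulator list the 4 highest and the lowest detected genes are named, except an item that is not reported here. Counts give precision for counting error only.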

Additional observations from a re-analysis of the deposited data

How the results depend on the processing

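The count of 37 detected Rab genes was 40 at a minimum of 0.5 TPM, 29 at 5 TPM and 37 without any 1 replicate. It was 44 at 10 expected counts, 28 in kallisto-format TPM and 44 in rescaled TPM. On these scales 1 TPM is not the same cutoff, so the counts are not like for like. Nuclear-encoded protein-coding genes held 8.47%, 14.7% and 2.92% of kallisto-format TPM in replicates 1, 2 and 3, against 20.0%, 22.2% and 20.6% of the main TPM. The share of all protein-coding genes at these other cutoffs is not given here. The median level of 2.59 log2 units became 2.36 with a pseudocount of 0.1, 3.90 over detected members only, 3.04 in FPKM, 1.56 in kallisto-format TPM and 4.65 in rescaled TPM, where the scale itself differs; leaving out each replicate gave 2.49 to 2.66. Rab14 held 9.99% of the summed Rab TPM, 8.85% in kallisto-format TPM and 11.4% in expected counts, which are not per length; leaving out each replicate gave 9.80% to 10.2%. With protein-coding isoforms only, chosen after seeing the data, the highest gene was Rab7 with 10.3%. The median retained-intron share of 22.8% became 26.9% in kallisto-format TPM, 14.0% in expected counts and 20.0% over all members with such an isoform, and 21.7% to 23.5% without each replicate. Of 23 named genes, 21 moved by less than 1 SD in posterior mean TPM. The count of 0 Rab genes in each library contrast was also 0 with edgeR without a filter, with size factors of DESeq2, and with DESeq2 itself, whose counts over all genes were 85, 28 and 35 for replicates 1, 2 and 3, against 29, 0 and 1 in edgeR; with no filter edgeR called 0, 349 and 161. Leaving out a replicate left these contrasts no residual degrees of freedom. No paired analysis was possible because the samples form 1 group. Genes under about 10 counts per library, among them Rab15, Rab25 and Rab33a, are limited by depth.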
